A study of Mus musculus with 2 samples.

Results

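High-pileup Hmga2 peaks are the short peaks of the list at which the most fragments from the Hmga2 immunoprecipitation were stacked, whatever the background at the site. They were selected by position, length and pileup alone, as peaks on autosomes 1 to 19 with a pileup of at least 10 and a length under 500 bp. Pileup is the mean number of immunoprecipitated fragments that overlap each base of a peak. Of the 34597 peaks in the list, 2628 were high-pileup peaks by this rule. They were compared with 21464 low-pileup peaks, which are autosomal peaks of the same length limit with a pileup under 7. Another 8750 short autosomal peaks lay between these limits.

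The list came from 1 chromatin immunoprecipitation (ChIP) library made with an antibody against the endogenous Hmga2 protein, with 1 input library as the control. Per the labels, both libraries came from the mouse embryonic stem cell line E14Tg2a in a stabilized EpiLC (epiblast-like cell) state, and no genetic change was named for either. The methods instead describe EpiSCs (epiblast stem cells) obtained from induced pluripotent stem cells, both Hmga2 wild-type and Hmga2 knockout. For the Hmga2 ChIP, the paper's figure legend names wild-type EpiSCs. There was no replicate, so no test between groups was possible, and all intervals below cover only the counting error of peaks, which are not replicates.

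Hmga2 is a small architectural chromatin protein. It has no enzymatic activity, and it holds A+T-rich DNA in the minor groove through its AT-hook motifs, bending the DNA and helping other factors and chromatin domains to assemble. It is abundant in early embryonic and epiblast-type cells and in many tumours, and it is low or absent in most adult tissues. A protein of this kind can leave a broad, diffuse ChIP signal along A+T-rich chromatin as well as isolated sharp sites.

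The pileups were first described, since they chose the regions. The median pileup of the 2628 high-pileup peaks was 11.7 (quartiles 10.7 and 13.4), compared with 5.78 (quartiles 5.33 and 6.31) at the low-pileup peaks. Only 360 of them reached a pileup of 15, 57 reached 20, and 6 reached 30. Most high-pileup peaks thus lay close to the limit. There were 12 peaks with a pileup of exactly 10, the lowest value included, and their folds ranged from 3.16 to 5.97 with a median of 5.52. The nearest short autosomal peaks outside the limit were 17 with a pileup of 9.99, and their folds ranged from 3.03 to 5.96 with a median of 5.36. For example, chr15:36632165-36632354 was just inside and chr5:139175381-139175538 just outside, and both had a fold of 5.96. If a pileup of 10 is read as a count of 10 fragments, its exact 95% Poisson interval runs from 4.80 to 18.4, and that of a count of 6 from 2.20 to 13.1. A single peak near the limit therefore cannot be told from its neighbours below it.

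The lengths, which the rule also used, are given as a description. The length had a median of 191 bp, with quartiles of 165 and 220 bp, and 75.7% of them (95% Wilson interval 74.0% to 77.3%) were at least 150 and under 250 bp long. Of the low-pileup peaks, 29.8% fell in that range (29.2% to 30.4%). The low-pileup peaks lay more at both ends of the scale. The shortest length of the list, 134 bp, was found at 25.5% of them and at 1.41% of the high-pileup peaks. A length of 300 bp or more was found at 26.7% and 6.93%, respectively. The median length also moved with the pileup among the high-pileup peaks, from 181 bp at pileups of 10 to under 12 to 219 bp at 20 or more. Because the pileup is averaged over the peak, length and pileup are not independent of each other.

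The fold enrichment, the p-value and the q-value come from the same peak calls as the pileup and are given as a description. High-pileup peaks had a median fold of 6.21 over the local background (lower quartile 5.48, range 2.22 to 20.8) and a median -log10 p of 9.77. Their lowest -log10 p was 3.59 and their lowest -log10 q 1.06, which is under the medians of the low-pileup peaks, 4.11 and 1.38. A q under 1e-05 was found at 1925 of the 2628 high-pileup peaks, beside 6.03% of all 34086 autosomal peaks, and at none of the 21464 low-pileup peaks.

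The background of a peak is the number of fragments that the peak caller set against its pileup, and pileup and fold together give it. The caller takes the larger of a genome-wide and a local value from the input, so that a background at the lowest value of the list does not measure the input fragments at that site. The median background was 1.04 fragments at high-pileup peaks (quartiles 0.854 and 1.33) and 0.846 at low-pileup peaks (quartiles 0.844 and 0.943), and it was higher at the high-pileup peaks in all 19 autosomes. The lowest background of the autosomes was 0.843 fragments. A background within 1% of it was found at 638 high-pileup peaks, or 24.3% (22.7% to 26.0%), compared with 52.3% of the low-pileup peaks. A background over 2 was found at 122 high-pileup peaks, and the highest value among low-pileup peaks was 1.63. A peak with a low pileup at a high background is not enriched and cannot enter the list, so this part of the difference is set by the peak calling. The 122 high-background peaks had a median pileup of 13.3 but a median fold of only 4.12, whereas the 638 peaks at the lowest background had a median pileup of 11.4 and a median fold of 6.72.

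**Figure D1:**
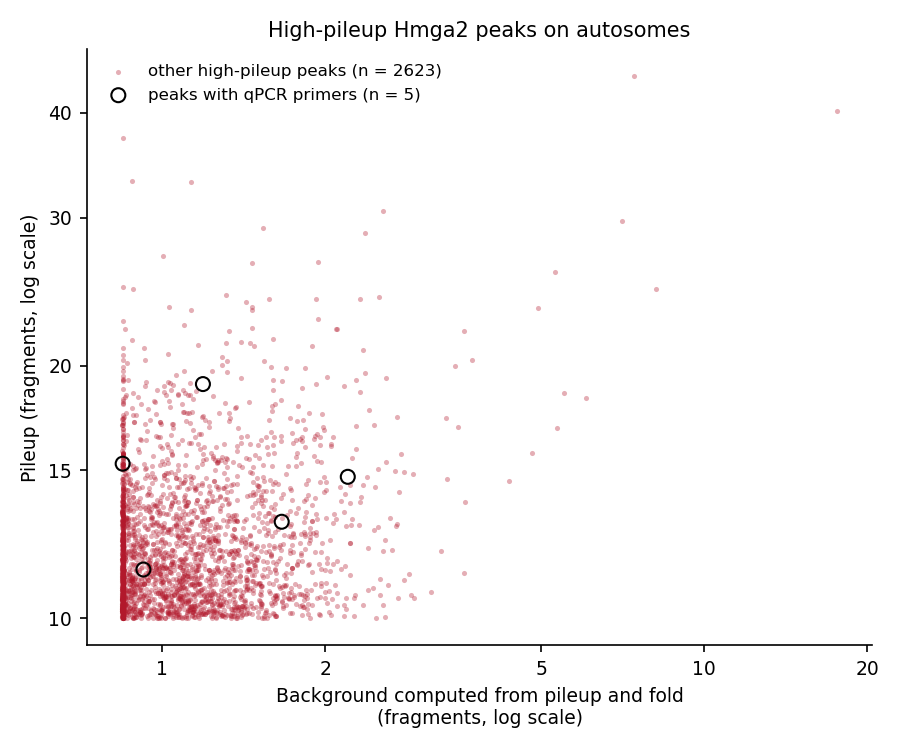
Pileup of each of the 2628 high-pileup peaks (vertical log axis, fragments) against the background computed back from pileup and fold (horizontal log axis, fragments), with the 5 peaks for which the methods list qPCR primers circled. Most points lie at pileups between 10 and 15 and backgrounds under 2, and 3 of the 10 highest pileups lie at backgrounds over 5.

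A high pileup had different make-ups at the strongest sites. The highest pileup of all, 44.2, was found at chr4:33859994-33860288, where the background was 7.42 and the fold 5.37. The second, 40.2 at chr13:4559141-4559274, stood on a background of 17.6, the highest of all, and its fold of 2.22 was the lowest among the high-pileup peaks. The third was of the other kind. At chr16:41966794-41967031 the pileup was 37.3 on a background of 0.844, close to the lowest value of the list, and the fold of 20.8 was the highest of all. The next ones, at chr2:144164112-144164349 and chr7:29062474-29062677, resembled it, with pileups of 33.2 and 33.1 on backgrounds of 0.879 and 1.13. The sixth and seventh, at chr4:43444941-43445175 and chr6:56190449-56190666, again had raised backgrounds of 2.55 and 7.04 at pileups of 30.6 and 29.7. The remaining 3 of the 10 were at chr11:105181320-105181457, chr17:36130966-36131177 and chr5:99157027-99157256. Their pileups were 29.2, 28.8 and 27.0, and their folds were 11.9, 8.85 and 14.0.

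The surroundings of these 10 sites differed widely. Their nearest other high-pileup peak was between 71.6 kb and 6450.8 kb away, beside a median of 261.9 kb for all high-pileup peaks, and no more than 2 lay within 500 kb of any of them. Peaks of any pileup numbered from 4 within 500 kb of the site on chromosome 7 to 20 around that on chromosome 11. The chromosome 17 site had no low-pileup peak within 500 kb, and its nearest was 558.6 kb away.

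All 5 peaks for which the methods list qPCR primers were high-pileup peaks, beside 2628 of the 34597 peaks in the list. The authors picked them from their own called Hmga2 peaks, so this count is no independent check of high-pileup peaks. In the paper the primers were used on H3K4me1 and H3K27ac immunoprecipitates. The strongest, at chr14:82855261-82855488, was the negative control there. It had a pileup of 19.01 and ranked 85 among the high-pileup peaks. The others had pileups of 15.3 at chr10:77516114-77516300, 14.7 at chr12:52805210-52805394, 13.0 at chr14:98693610-98693917 and 11.4 at chr17:84915072-84915385. Their folds ranged from 4.92 on chromosome 12 to 9.15 at the strongest. Their surroundings covered much of the range seen in all high-pileup peaks. The strongest had 47 other peaks within 500 kb, the nearest 3.21 kb away, while that on chromosome 10 had 3, the nearest 192.4 kb away and none of low pileup.

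The question of whether high-pileup sites lie inside the stretches that are rich in Hmga2 peaks was addressed by counting the other autosomal peaks within 500 kb of each peak centre. High-pileup peaks had fewer such neighbours than low-pileup peaks. The median was 13 (quartiles 9 and 21) for high-pileup peaks and 18 (quartiles 11 and 28) for low-pileup peaks, and the means were 16.1 and 20.5, a ratio of 0.788. The same direction was seen within each of the 19 autosomes, by the median as well as by the mean. The ratio of the means within single autosomes ranged from 0.620 on chromosome 15 to 0.958 on chromosome 14 (mean 0.798 ± 0.090, SD over n = 19 autosomes). On chromosome 15 the medians were 10 and 21, and on chromosome 14, which held the most crowded sites, they were 26 and 28.

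The local number of peaks fell in steps along the whole range of pileups. The median number of other peaks within 500 kb was 18 for peaks with a pileup from 5 to under 6, 16 from 7 to under 8, 14 from 10 to under 12 and 13 from 12 to under 20. It was 11 (quartiles 7 and 16) for the 57 peaks with a pileup of at least 20. The decline thus did not start at the limit of 10. Low-pileup peaks were 21464 of the 34086 autosomal peaks counted as neighbours, and they were the more unevenly spread set. Their spread per 1 Mb beyond counting error, as a coefficient of variation, was 0.712, against 0.528 for high-pileup peaks. A count of neighbours is therefore higher around low-pileup peaks in part by construction, and the same holds for the spacing below. When only high-pileup peaks were counted, the direction was the opposite, with 1.411 within 500 kb of a high-pileup peak and 1.202 within 500 kb of a low-pileup peak. With both sets restricted to a background within 1% of the lowest, the ratio of means was 0.856, and with both restricted to lengths of 150 to under 250 bp it was 0.787. The part of the background in the difference was not tested further.

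**Figure D2:**
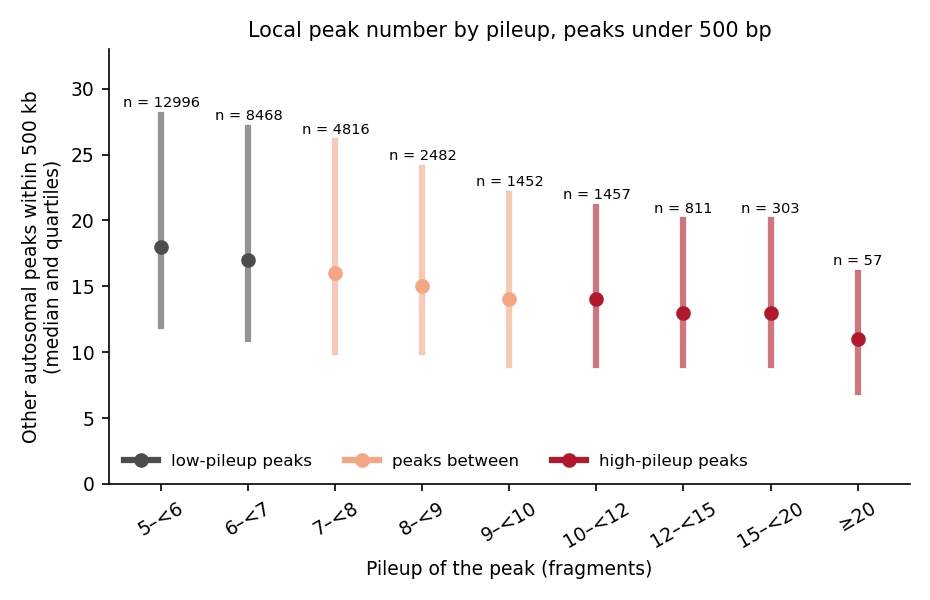
Number of other autosomal peaks within 500 kb (vertical axis, dots are medians and bars run from the lower to the upper quartile) for autosomal peaks under 500 bp grouped by pileup in fragments (horizontal axis), with the number of peaks above each bar. The medians fall from 18 at pileups of 5 to under 6 to 11 at pileups of at least 20.

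The sites at the ends of this range were then examined. There were 8 high-pileup peaks (0.304%, 0.154% to 0.600%) without any other peak within 500 kb, compared with 14 low-pileup peaks (0.0652%, 0.0389% to 0.109%). The most remote was at chr14:3167394-3167536, with a pileup of 16.6 and the nearest peak 1220.5 kb away. The windows were not corrected for chromosome ends or unsequenced stretches, where no peak can be called. A pair of the 8 lay next to each other on chromosome 8, at chr8:123149761-123149981 and chr8:123754207-123754366, with pileups of 12.1 and 10.3. At the other end, the 5 most crowded high-pileup peaks were all on chromosome 14. The first, at chr14:95525178-95525367, had a pileup of 12.6 and 61 other peaks within 500 kb, of which 42 were low-pileup peaks and 2 were high-pileup peaks.

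To see how the numbers of both kinds of peaks vary together, the autosomes were divided into bins of 1 Mb. The bins that hold the first and the last peak of each chromosome were left out, and with them 27 high-pileup and 213 low-pileup peaks. The remaining 2384 bins were sorted by their number of low-pileup peaks. Bins with at most 2 low-pileup peaks held 0.904 high-pileup peaks on average (95% Poisson interval 0.8047 to 1.012). Those with 6 to 10 held 1.07 (0.997 to 1.146), those with 11 to 15 held 1.08 (0.973 to 1.19), and those with at least 21 held 1.58 (1.40 to 1.77). From the first to the last of these classes, the high-pileup peaks increased 1.74-fold, the peaks with pileups between the limits 4.07-fold, and the low-pileup peaks 21.4-fold. The last of these values was set by the sorting and is no measure of how much low-pileup peaks vary.

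As a share of the local peaks, high-pileup peaks were 23.3% of all short peaks (21.1% to 25.7%) in the bins with at most 2 low-pileup peaks, 8.70% in those with 6 to 10 and 4.49% (4.02% to 5.02%) in those with at least 21. Low-pileup peaks are most of the denominator of this share in all but the first class, so the fall was largely fixed by the sorting. The Spearman correlation with the number of low-pileup peaks across the 2384 bins was 0.10 for high-pileup peaks and 0.53 for the peaks between the limits. These bins share 1 library, and a mean of 1.09 high-pileup peaks per bin lowers any correlation. The length of sequence to which reads can be mapped was not determined for the bins.

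**Figure D3:**
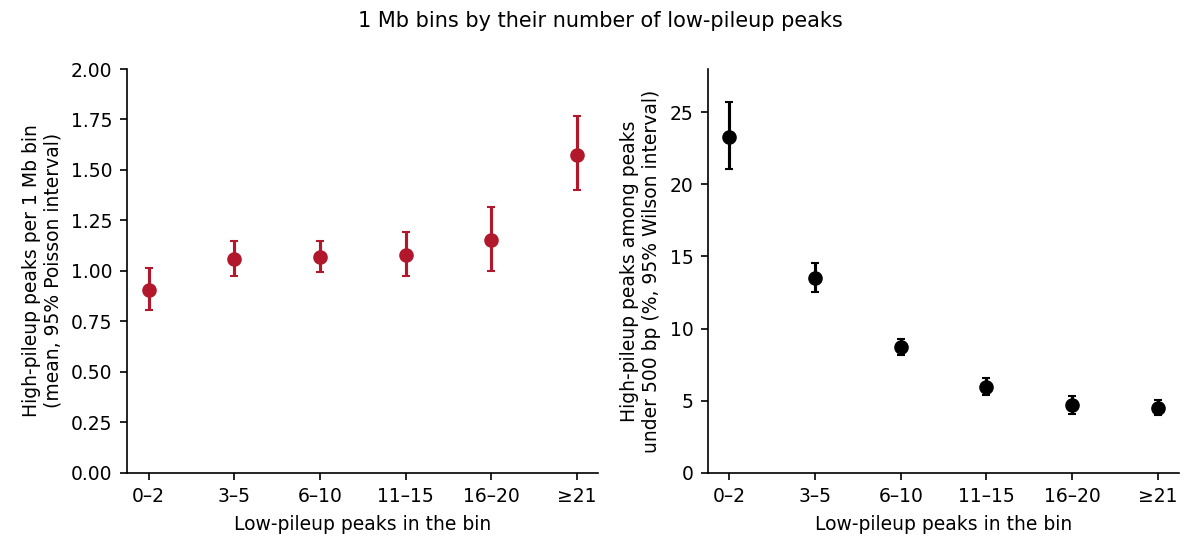
Mean number of high-pileup peaks per 1 Mb bin with 95% Poisson intervals (left) and their percent of all peaks under 500 bp with 95% Wilson intervals (right), in bins sorted by their number of low-pileup peaks (horizontal axes). The number per bin lies between 0.904 and 1.58, and the fall of the percent from 23.3% to 4.49% is largely built in, since the bins are sorted by the low-pileup peaks that make up much of its denominator.

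High-pileup peaks were not evenly spread themselves. No high-pileup peak was found in 920 of the 2384 bins, and the variance of the number per bin was 1.30 times its mean. The spread beyond counting error, as a coefficient of variation, was 0.528 for high-pileup peaks, 0.477 for the peaks between the limits and 0.712 for low-pileup peaks. The fullest bins held 7 high-pileup peaks, and there were 4 of them. That at chr15:75000001-76000000 held only 4 low-pileup peaks, that at chr17:80000001-81000000 held 8, that at chr2:75000001-76000000 held 9, and that at chr14:98000001-99000000 held 17. The 7 peaks in the chromosome 15 bin had pileups from 10.1 to 12.7, whereas the chromosome 14 bin included the site at chr14:98443333-98443594 with a pileup of 23.3, as well as the primer site at chr14:98693610-98693917.

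The chromosome share was compared next. The autosomes held 1.09 high-pileup peaks and 8.91 low-pileup peaks per Mb of the stretch between the outermost peaks of each chromosome, called the span here. High-pileup peaks varied 1.68-fold in density, with 0.871 per Mb on chromosome 7 as the lowest and 1.46 on chromosome 8 as the highest. Low-pileup peaks varied 2.51-fold, with 4.76 per Mb on chromosome 7 and 12.0 on chromosome 16. Relative to low-pileup peaks, high-pileup peaks were most frequent on chromosomes 19, 11 and 7. Chromosome 19 held 2.66% of the high-pileup peaks (2.11% to 3.35%) and 1.62% of the low-pileup peaks (1.46% to 1.80%), a ratio of 1.64. The ratio was 1.49 on both chromosomes 7 and 11. Together these 3 chromosomes held 13.1% of the high-pileup peaks (11.9% to 14.5%) and 8.63% of the low-pileup peaks (8.26% to 9.02%). The peaks between the limits lay in the middle with 10.8% (10.2% to 11.5%), so this share, too, increased from below the limit of 10.

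The lowest ratio was found on chromosome 16, which held 3.96% of the high-pileup peaks (3.28% to 4.77%) and 5.26% of the low-pileup peaks (4.96% to 5.56%), a ratio of 0.753. Over the 19 autosomes, the interval of the high-pileup share lay above that of the low-pileup share on 4, which were chromosomes 7, 8, 11 and 19, and below it on 2, which were chromosomes 3 and 16. On the other autosomes the intervals overlapped. Chromosome 8 also had the highest median background at high-pileup peaks, 1.14 fragments, and at low-pileup peaks, 0.869 fragments, and the part of the background in its share was not tested.

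Because Hmga2 is an A+T-binding protein, both densities were set beside the A+T percent of whole chromosomes in GRCm38. The density of low-pileup peaks was higher on A+T-rich chromosomes (Pearson r = 0.81, Spearman rho = 0.84, n = 19 autosomes), while that of high-pileup peaks showed little relation (r = -0.03, rho = 0.06). The ratio of the 2 shares was accordingly lower on A+T-rich chromosomes (r = -0.78, rho = -0.78). It was higher on chromosomes with more protein-coding genes per Mb (r = 0.87, rho = 0.89), where the densities of high-pileup and low-pileup peaks had r = 0.12 and r = -0.76. Chromosome 11, for example, has 56.2% A+T and 13.4 protein-coding genes per Mb, and chromosome 16 has 59.1% and 6.76. Without chromosomes 3 and 11, farthest from the median A+T percent, the ratio had r = -0.73, and leaving out chromosomes 7 and 11, which have the most genes per Mb and are farthest from the median, gave r = 0.78 for the relation with genes. The chromosomes share 1 library, and A+T percent and gene density move together, so these values are a description and carry no p-value.

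**Figure D4:**
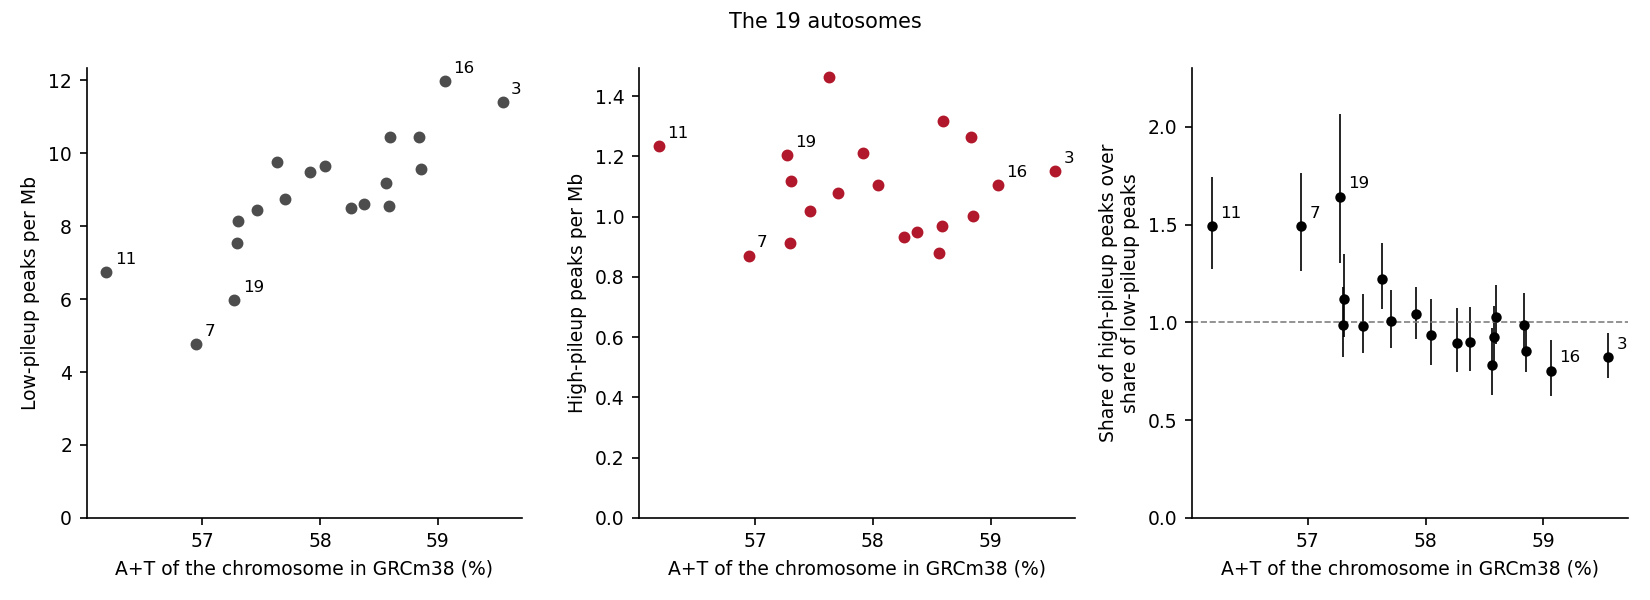
Low-pileup peaks per Mb (left), high-pileup peaks per Mb (middle) and the ratio of the shares of high-pileup and low-pileup peaks (right, with 95% Wilson intervals of the high-pileup share) against the A+T percent of the 19 autosomes in GRCm38, with some chromosomes numbered. The low-pileup density rises with A+T percent, the high-pileup density stays between 0.871 and 1.46 per Mb, and the ratio is 1.49 or more on chromosomes 7, 11 and 19.

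Along the chromosomes, high-pileup peaks lay later than low-pileup peaks. Mouse chromosomes have their centromere at the start of the numbering. The median position was 55.0% of the span for high-pileup peaks and 49.5% for low-pileup peaks, and it was later for high-pileup peaks in 14 of the 19 autosomes. It moved with the background. The median was 51.7% for the 638 high-pileup peaks at the lowest background and 60.1% for the 122 with a background over 2. The last 10% of the span held 10.5% of the high-pileup peaks (9.39% to 11.7%) and 7.17% of the low-pileup peaks (6.83% to 7.52%). The first 10% held 7.84% (6.87% to 8.93%) and 9.20% (8.82% to 9.60%). The peaks between the limits again had values in the middle, with 8.43% in the last 10% and 8.74% in the first 10%. Exceptions were seen as well. On chromosome 7 the median position was 49.9% for high-pileup and 61.4% for low-pileup peaks, and on chromosome 17 it was 47.8% and 63.0%.

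Spacing was measured as the distance to the nearest other peak of any pileup. It was longer for high-pileup peaks, with a median of 23.1 kb (quartiles 8.61 and 52.0 kb), compared with 17.2 kb (quartiles 6.56 and 39.1 kb) for low-pileup peaks. Another peak lay within 10 kb of 27.9% of the high-pileup peaks (26.2% to 29.6%) and of 34.5% of the low-pileup peaks (33.9% to 35.1%), a ratio of 0.809. Unlike the number within 500 kb, the spacing did not move one way up to the highest pileups. The median distance was 24.7 kb at pileups of 15 to under 20 and 20.98 kb for the 57 peaks of at least 20, and the shares with another peak within 10 kb were 26.7% and 31.6%. No interval was computed for these steps, and with only 57 peaks in the last, this turn cannot be told from counting error. Over all pileups of at least 10, this share was lower for high-pileup than for low-pileup peaks in 16 of the 19 autosomes, the exceptions being chromosomes 6, 9 and 11.

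Other high-pileup peaks, in contrast, were closer to high-pileup peaks. The nearest one was at a median of 261.9 kb from a high-pileup peak and 306.4 kb from a low-pileup peak. A high-pileup peak lay within 10 kb of 95 high-pileup peaks, or 3.61% (2.97% to 4.399%), and of 2.35% of the low-pileup peaks (2.16% to 2.56%). These 95 peaks formed 48 pairs of successive high-pileup peaks on 17 autosomes. Their median pileup was 12.0 and their median background 1.14, compared with 11.7 and 1.04 for all high-pileup peaks. The closest pair was at chr6:67640514-67640857 and chr6:67641419-67641731, 0.890 kb apart between centres, with pileups of 10.0 and 11.6 on backgrounds of 2.57 and 2.06. The next, at chr17:80420310-80420471 and chr17:80421242-80421493, was 0.977 kb apart, with pileups of 13.2 and 19.9.

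The company of a peak was taken as the percent of high-pileup peaks among all its neighbours, and it increases both with more high-pileup and with fewer other neighbours. Within 10 kb, 10.9% of the neighbours of high-pileup peaks were high-pileup peaks (9.07% to 13.2%, 98 of 895), compared with 5.22% (4.80% to 5.68%, 508 of 9727) of the neighbours of low-pileup peaks. Within 50 kb the values were 10.4% and 5.67%, within 100 kb they were 9.65% and 5.77%, and within 500 kb they were 8.75% (8.49% to 9.02%) and 5.87% (5.80% to 5.94%). Around the peaks between the limits the percent within 500 kb was 6.99% (6.87% to 7.12%), between both. Neighbouring peaks are counted from both sides, so the intervals are too narrow. At 500 kb the percent was higher around high-pileup peaks in all 19 autosomes. It was 14.8% and 4.69% on chromosome 17 and 8.01% and 7.47% on chromosome 14.

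The company values moved with the background. Around the 122 high-pileup peaks with a background over 2, 12.0% of the neighbours within 500 kb were high-pileup peaks, and around the 638 at the lowest background, 7.31%. With the high-pileup and low-pileup sets both restricted to a background within 1% of the lowest, 2.10% of the neighbours of the former and 1.67% of those of the latter were high-pileup peaks of that restricted set, a ratio of 1.26 in place of 1.49.

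**Figure D5:**
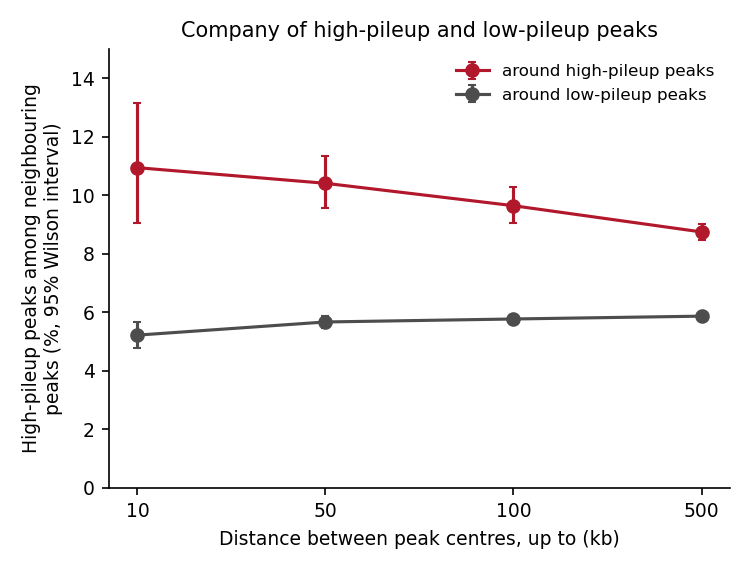
Percent of high-pileup peaks among all neighbouring autosomal peaks (vertical axis, with 95% Wilson intervals) up to 10, 50, 100 and 500 kb (horizontal axis, distance between centres) around high-pileup and low-pileup peaks. The percent around high-pileup peaks falls from 10.9% to 8.75%, and that around low-pileup peaks stays between 5.22% and 5.87%.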

How the data were processed

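The 2 libraries were 1 Hmga2 ChIP and 1 input, and the list of peaks belongs to the ChIP library. The authors ran the nf-core chipseq pipeline, in which Trim Galore removed adapters, BWA placed the reads, ambiguous reads were discarded and MACS2 called peaks on the ChIP library against its input. Nothing was pooled. The deposited table gives the pileup as a signal. It has no summit column, as in the broad mode of MACS2, where the pileup is a mean over the peak. It also gives 3 deposited scores, namely the fold enrichment and the -log10 of p and of q. The decimal points of these scores are displaced in the table. For each peak the placement was taken that came closest to the Poisson relation of pileup, background and p, and q was placed by its relation to p over all peaks. The background was computed as (pileup + 1) / fold - 1. The study's supplement lists peaks with their points in place, and the shortened copy used here held 1999 of them. The paper cites that supplement for its own selected set of discrete Hmga2 peaks, so it is no sample of all peaks. Fold, p and q were recovered within 0.1% in all 1999, of which 1885 were high-pileup peaks and none was a low-pileup peak. For low-pileup peaks the placement of fold and p rests on the Poisson relation alone, from which the placed p differed by at most 2.20%. The list gives no read totals, so depth enters only through the pileup.

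The submitters' processing notes name mm9, while the methods name both mm9 and GRCm38, and positions are given as listed. They are not GRCm38 positions, since 136 autosomal peaks, 6 of them high-pileup, end beyond the GRCm38 chromosome ends. The planned description of sequences and genes at the peaks was therefore not run. From GRCm38, with GENCODE M21, only whole-chromosome A+T percent and gene numbers were taken.

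Distances are between peak centres. Shares have 95% Wilson intervals. The 3 settings with both sets restricted by length or background, and the 1 Mb bins, were added after the list had been seen. The regions named were, by rule, the 10 with the highest pileup, those with primers, those next to the pileup limit, the closest pair, the fullest bins, and those with the most and the fewest peaks within 500 kb. The second closest pair, the site of highest pileup in the chromosome 14 bin and the chromosomes named were picked after their values were seen. The members and lists were chosen with earlier results of these data known. Distance counting and point placement were tested on simulated data. Python 3.11.15, numpy 2.4.6, pandas 2.3.3 and scipy 1.17.1 were used.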

Additional observations from a re-analysis of the deposited data

How the results depend on the processing

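No paired analysis was possible because the ChIP had no replicate, and for the same reason none could be left out. The number of high-pileup peaks was 1171 at a pileup of at least 12 and 6562 at a pileup of at least 8, by construction. The ratio of mean peak numbers within 500 kb stayed between 0.724, with low-pileup peaks only counted, and 0.856 in all 13 alternatives. Counting high-pileup peaks only was not among them and reversed the direction, with 1.411 around high-pileup peaks and 1.202 around low-pileup peaks. The ratio of shares on chromosome 19 stayed between 1.38 and 1.86 in all 8, and that on chromosome 16 between 0.601, at a pileup of at least 12, and 0.879. Peaks per Mb of span give the same ratios by construction. The ratio of the shares with another peak within 10 kb, 0.809, was 0.870 and 0.859 with both sets restricted to a background within 1% of the lowest or of at most 1, and 0.906 at a distance of 50 kb, and lay between 0.791 and 0.855 in the other 7 alternatives. The ratio of the company values, 1.49, was 1.71 and 1.22 at a pileup of at least 12 and at least 8, 1.26 and 1.22 under the same 2 restrictions of background, and 1.84 and 2.10 at 50 and 10 kb. Apart from the count of high-pileup peaks only, no ratio changed its side of 1. The cause of these changes was not tested. Pileups near 10 limit what can be said of any single peak.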

Other observations

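Short peaks with a pileup of at least 10 were also found on the sex chromosomes, 30 of the 467 peaks on X and 23 of the 44 peaks on Y. On the autosomes, 54 peaks with such a pileup were 500 bp or longer. None of these entered the comparisons.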
